A study of Mus musculus with 32 samples.

Results

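The 7 genes Mmrn1, Reln, Flt4, Ccl21a, Prox1, Lyve1 and Pdpn are expressed by lymphatic endothelium, the lining of the vessels that carry fluid and immune cells out of tissues. They are 7 of the 43035 genes in each table, taken as a fixed list of symbols with earlier results of these libraries known. All 7 passed the filter on low counts in both the sorted-cell and the whole-muscle libraries, Mmrn1 among sorted cells through the endothelial libraries alone. The endothelial libraries of DUX4 and WT mice were in view when they were chosen, so every comparison that uses them is given as a description without a test.

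The 32 RNA-seq libraries formed 8 groups, named here as in the labels, and every mouse, WT included, ate chow containing doxycycline. DUX4 mice carried the inducible form of a human transcription factor, DUX4, which when it is wrongly switched on in muscle causes facioscapulohumeral dystrophy (FSHD). Cells sorted from hind limb muscle on CD31, an endothelial surface protein, made up the groups CD31DUX (4 libraries, DUX4) and CD31WT (3 libraries, WT). Cells sorted on PDGFRa, which marks fibro-adipogenic progenitors (FAPs, connective tissue cells of muscle), made up the groups PDGDUX (4 libraries, DUX4) and PDGWT (3 libraries, WT). Whole muscle gave 5 DUX4 (IDUX.2Weeks) and 5 WT libraries (WT.2Weeks) at 2 weeks, and 4 DUX4 (IDUX.16Weeks) and 4 WT libraries (WT.16Weeks) at 16 weeks. Each sorted sample held 75000 cells. Not given in the sources used here are the promoter that drives the inducer, the age and sex of the mice, the muscles taken whole and the time of the sorted cells. Nothing in the labels says that each library came from a separate animal, so p-values measure the spread between these libraries, which may be technical.

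Library totals ran from 6.07 M to 20.7 M counts, and levels are given as CPM, counts brought to a common library size with TMM factors. Where a gene had a count of 0, the limit from counting error alone was 0.145 CPM in the deepest library and 0.494 CPM in the shallowest. The human DUX4 transgene had no row and was not analysed here. Wfdc3, a known DUX4-responsive mouse gene, reached 17.7 to 114.3 CPM in IDUX.2Weeks against 0 to 0.49 in WT.2Weeks, and 33.4 to 53.8 CPM in IDUX.16Weeks against 0 to 0.311 in WT.16Weeks. Among sorted cells it stayed at or under 1.3 CPM in every group, so it gives no check of the sorted libraries' labels. In both genotypes the 2-week libraries split by Hoxd8, a homeobox gene of body position, into 2 sets, at 51.2 to 73.5 CPM in replicates 1 to 3 and 4.49 to 5.56 CPM in replicates 4 and 5. Calls at 16 weeks were also made without WT.16Weeks replicates 1 and 4. These 2 were picked from earlier results of these libraries, which are not shown here.

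Lymphatic identity is set by the homeobox factor PROX1, which with SOX18 and COUP-TFII (Nr2f2) turns venous cells of the embryo into lymphatic cells. Growth of these vessels depends on VEGF-C, which is activated by CCBE1 and ADAMTS3. VEGF-C and VEGF-D bind VEGFR3, the product of Flt4. The vessels attract dendritic cells through the chemokine CCL21. These genes are not exclusive to lymphatics: some blood endothelial cells express Flt4, some macrophages express Lyve1, platelets hold the Mmrn1 product multimerin, and connective tissue cells express Pdpn.

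The 3 upstream sequences below are shown because they belong to the gene that differed most between the endothelial groups (Mmrn1) and to those called in whole muscle (Reln and Ccl21a). Each is the 250 bases before a RefSeq start site on GRCm38.p6, 5′ to 3′ on the gene's strand, and capitals mark a motif found by its letters. RefSeq entries were held for 6 of the 7 genes (2 for Prox1). The Mmrn1 window, on the plus strand, lies inside the span that GENCODE gives the gene, and whether transcription starts there was not examined.
Mmrn1, chr6:60944067-60944316, plus strand: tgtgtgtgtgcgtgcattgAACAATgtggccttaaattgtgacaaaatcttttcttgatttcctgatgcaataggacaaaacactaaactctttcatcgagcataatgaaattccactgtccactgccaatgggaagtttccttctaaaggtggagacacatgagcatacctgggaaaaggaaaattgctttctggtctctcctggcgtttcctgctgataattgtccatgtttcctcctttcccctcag
Reln, chr5:22344706-22344955, minus strand: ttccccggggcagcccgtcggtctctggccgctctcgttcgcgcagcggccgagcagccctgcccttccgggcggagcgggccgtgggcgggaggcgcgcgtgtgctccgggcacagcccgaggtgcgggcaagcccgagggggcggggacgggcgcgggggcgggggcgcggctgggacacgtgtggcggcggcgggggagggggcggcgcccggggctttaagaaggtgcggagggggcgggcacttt
Ccl21a, chr4:42773992-42774241, minus strand: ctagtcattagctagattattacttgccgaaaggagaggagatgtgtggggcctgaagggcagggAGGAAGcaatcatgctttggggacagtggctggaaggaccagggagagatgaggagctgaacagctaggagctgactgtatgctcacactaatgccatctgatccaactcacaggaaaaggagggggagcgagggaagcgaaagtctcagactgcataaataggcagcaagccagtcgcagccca
The capitals are AACAAT, the letters bound by SOX factors, in Mmrn1 and AGGAAG, an ETS-type core, in Ccl21a. The searches read both strands and let motifs overlap. AACAAT occurs in 9.42% and AGGAAG in 29.5% of 32851 promoter windows of the same length. In the other windows, TATAAA (12.4% of windows) was found once before Prox1 and AGGTCA, letters bound by COUP-TF receptors (14% of windows), once before Pdpn. A DUX4 site, written as TAA and AATCA with 3 bases of any kind between, stood in 0.956% of windows and in none of those of the 6 genes. These are matches of letters and say nothing of binding.

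In the GENCODE annotation (vM21) of GRCm38, Mmrn1 (ENSMUSG00000054641) spans chromosome 6 from 60924976 to 60989378, Reln (ENSMUSG00000042453) chromosome 5 from 21884454 to 22344702, and Flt4 (ENSMUSG00000020357) chromosome 11 from 49609263 to 49652739. Ccl21a (ENSMUSG00000094686) lies on chromosome 4 from 42772860 to 42773993 and Pdpn (ENSMUSG00000028583) further along it from 143267431 to 143299564. Prox1 (ENSMUSG00000010175) spans chromosome 1 from 190118035 to 190170714, and Lyve1 (ENSMUSG00000030787) chromosome 7 from 110850607 to 110863239.

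All 7 genes were higher in CD31DUX than in CD31WT libraries, with no overlap between the groups, from 2.14 times the WT mean for Pdpn to 8.07 times for Mmrn1. Non-overlap in this direction held for 9.88% of all 17008 genes fitted in sorted cells, a figure from which nothing is read here because the genes were chosen on these libraries. The median log2 difference of the 7 genes was 2.14, beside -0.00473 over all genes. In RNA pooled from many cells, as in all these libraries, more lymphatic cells and more RNA of these genes per cell cannot be told apart.

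Prox1, the regulator of lymphatic identity, had 122.8, 119.7, 153.6 and 90.1 CPM in CD31DUX libraries, against 51, 51.3 and 22.2 CPM in CD31WT libraries. The log2 difference was 1.55 ± 0.49 (SE). CD31DUX replicate 3 was the highest library and CD31WT replicate 3 the lowest. Flt4, the VEGF-C receptor, had 391.5, 289, 379.2 and 233.7 CPM in CD31DUX, against 78.7, 122.2 and 90.2 CPM in CD31WT (1.74 ± 0.43). Every DUX4 library lay above every WT library for both genes.

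Lyve1, which encodes a hyaluronan receptor of lymphatic capillaries, had 575, 613, 875.1 and 563.3 CPM in CD31DUX and 101, 106 and 51.9 CPM in CD31WT. Its log2 difference was 2.93 ± 0.64, and CD31DUX replicate 3 stood apart above the other DUX4 libraries. Pdpn, which encodes the membrane glycoprotein podoplanin, had 35.9, 43.1, 42.5 and 46.3 CPM in CD31DUX and 16.2, 18.9 and 23.6 CPM in CD31WT, the smallest difference of the 7 (1.10 ± 0.27).

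The 3 genes for secreted products include the largest difference. Mmrn1, which encodes multimerin 1, had 1116.6, 881.2, 1100.6 and 825.6 CPM in CD31DUX, against 121.9, 160.6 and 82.3 CPM in CD31WT (3.01 ± 0.23). Reln, which encodes the extracellular glycoprotein reelin, had 165.4, 191, 245.7 and 130.9 CPM in CD31DUX, against 51.5, 36.3 and 36.9 CPM in CD31WT (2.14 ± 0.27). Neither gene's groups came near each other. Ccl21a had 1952, 2493.9, 4241.7 and 2565.5 CPM in CD31DUX and 536.9, 518.3 and 368.3 CPM in CD31WT (2.57 ± 0.66).

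**Figure D1:**
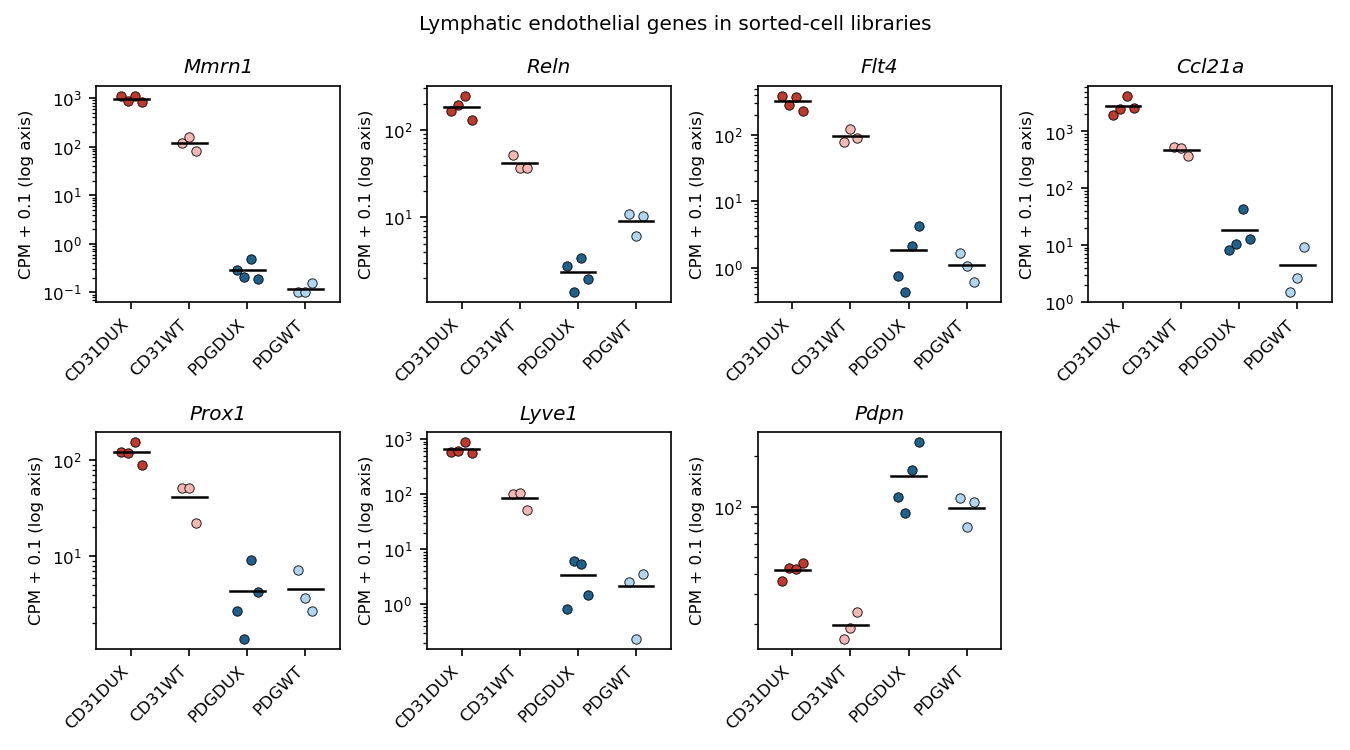
Level of each gene in every sorted-cell library, as CPM + 0.1 on a log axis (points: libraries, bars: group means; CD31DUX n = 4, CD31WT n = 3, PDGDUX n = 4, PDGWT n = 3). CD31DUX points lie above CD31WT points in all 7 panels, and Pdpn is the gene whose FAP libraries lie above the endothelial ones.

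The row named Ccl21a cannot be fully separated from its copies. Mouse chromosome 4 holds several near-identical Ccl21 genes, and 9 rows of the tables belonged to them. The transcript of the copy Gm21541 differed from that of Ccl21a at 6 of 870 bases (99.3% identity). Gm21541 averaged 1700.3 CPM in CD31DUX and 247 CPM in CD31WT. The Ccl21a row held 59.1 to 62% of the summed counts of the copies in CD31DUX and 61.7 to 68.5% in CD31WT. With all copies summed, the log2 difference was 2.68, against 2.57 for the row alone.

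The proportions among the genes also differed between the groups for some pairs. Set against Prox1 in the same library, Mmrn1 was at 7.17 to 9.17 times the Prox1 count in CD31DUX and 2.39 to 3.7 times in CD31WT. Lyve1 was at 4.68 to 6.25 times Prox1 in CD31DUX and 1.98 to 2.34 times in CD31WT. For Reln, Flt4, Ccl21a and Pdpn the ratio to Prox1 overlapped between the groups.

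Per kilobase of exon, the order in CD31DUX was Ccl21a (3233.7 CPM per kb), Lyve1 (224.9), Mmrn1 (167.2), Flt4 (39.3), Pdpn (23.1), Prox1 (14.5) and Reln (7.72), and no 2 neighbours overlapped. The order of the means was the same in CD31WT, with 545.4 CPM per kb for Ccl21a and 1.75 for Reln. There Lyve1 and Mmrn1, Mmrn1 and Flt4, and Flt4 and Pdpn overlapped.

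Other markers of lymphatic cells moved with them in the endothelial libraries, as a description of the same contrast. Over all genes, 9.88% were higher and 8.2% lower in every CD31DUX library than in any CD31WT library. Of 16 further lymphatic markers that passed the filter, 11 were higher in this way and none was lower. FAPs also express many of them: 8 of the 16 were lower and 4 higher in every CD31WT library than in any PDGWT library, beside 23.6% and 21% of all genes. Those named here were chosen after their values were seen. Ackr2, a receptor that scavenges chemokines, averaged 55.2 CPM in CD31DUX and 6.27 CPM in CD31WT. Pard6g, a cell polarity gene, averaged 157.4 CPM in CD31DUX and 24.1 in CD31WT, and Fgl2, which encodes a fibrinogen-like protein, 1385.1 CPM in CD31DUX and 346.6 in CD31WT. Ackr2 and Fgl2 were among the 8, with PDGWT means of 16.6 and 2600.9 CPM. Of 43 genes of lymphatic growth, 12 were higher and 7 lower without overlap, beside 9.88% and 8.2% of all genes. Those higher, also chosen by their values, included the transcription factor gene Tbx1 (23.3 CPM in CD31DUX, 5.51 in CD31WT). They also included the ligand genes Angpt2 (79.1 CPM in CD31DUX, 32.8 in CD31WT) and Sema3a (22.8 CPM in CD31DUX, 4.74 in CD31WT). Those lower were Kdr, the main VEGF receptor of blood vessels (431.9 CPM in CD31DUX, 593.6 in CD31WT), Tie1, Ramp2, Gata2, Klf2, Fat4 and Efnb2.

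Markers of other cells also differed between these libraries. Counts without overlap here and in the next paragraph stand beside 9.88% of all genes higher and 8.2% lower. The summed level of 9 capillary blood endothelial markers was 7507.6 to 9346.3 CPM in CD31DUX against 14130.6 to 17153.7 in CD31WT, and 8 of the 9 were lower without overlap. The sums of venous markers (7 genes) overlapped, at 2560.7 to 4281.6 CPM in CD31DUX and 2892.4 to 4479.9 in CD31WT, with 1 of 7 lower. Arterial sums (7 genes) also overlapped, at 642.7 to 996.2 CPM in CD31DUX and 974.5 to 1117.3 in CD31WT, with 2 of 7 lower. The sum of 10 markers shared by all endothelium was 3465.9 to 4089 CPM in CD31DUX against 4858.1 to 5453.4 in CD31WT, with 7 of 10 lower. FAP markers (9 genes) summed to 11233.5 to 13052 CPM in CD31DUX and 4352.6 to 6611.6 in CD31WT, with 6 of 9 higher, among them Pdgfra at 118.8 to 198.2 CPM in CD31DUX and 30 to 68.7 in CD31WT.

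Muscle fibre markers (6 genes) summed to 313.2 to 780.9 CPM in CD31DUX and 93.5 to 218.4 in CD31WT, with 5 of 6 higher. Red cell markers (4 genes) summed to 942.1 to 4738.3 CPM in CD31DUX and 7796.5 to 16227.5 in CD31WT, all 4 lower, and 4 of 6 Schwann cell markers were lower (97.3 to 128.2 CPM in CD31DUX, 160 to 237.6 in CD31WT). Macrophage markers (12 genes) summed to 287.6 to 428.5 CPM in CD31DUX and 37.5 to 299.8 in CD31WT, with 3 of 12 higher without overlap. Mural cell markers (8 genes) summed to 644.4 to 929.4 CPM in CD31DUX and 1214.1 to 1522.9 in CD31WT. Platelet markers overlapped between the groups (14.6 to 28.3 CPM in CD31DUX, 6.56 to 29.2 in CD31WT), as did lymph node stroma markers (55.1 to 76.2 CPM in CD31DUX, 57.6 to 68 in CD31WT). No marker of these lists was at 0 in all libraries of either group, and their part in the difference was not tested.

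**Figure D2:**
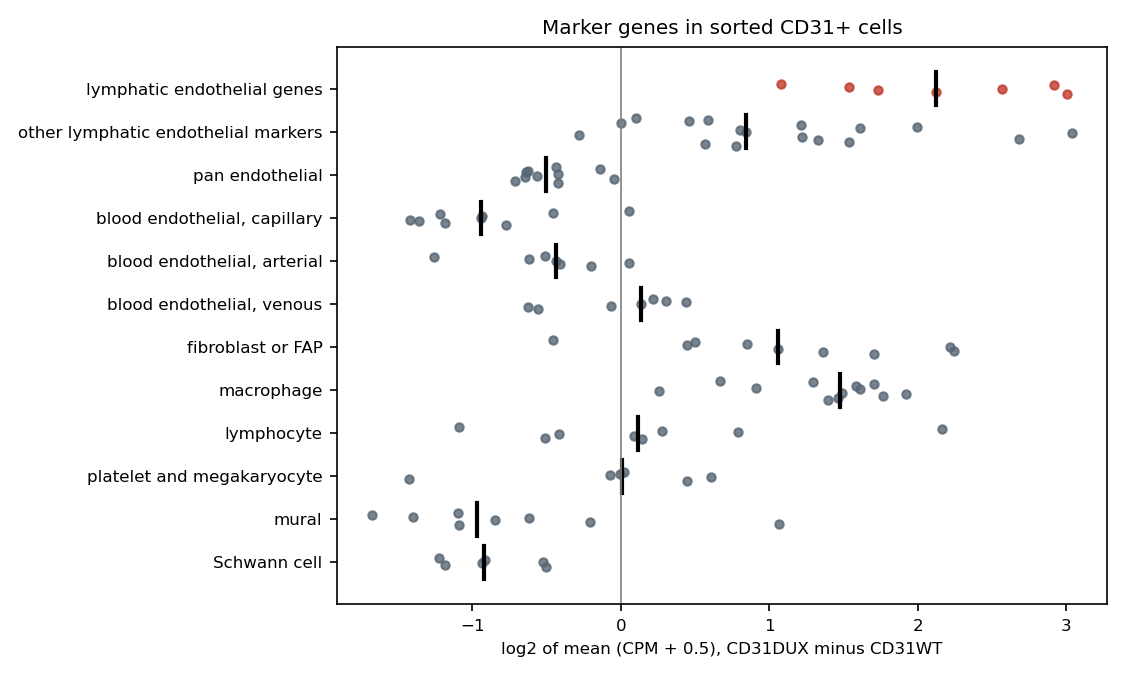
Difference between CD31DUX and CD31WT for each marker gene, as the log2 of the ratio of mean CPM + 0.5 (points: genes, bars: list medians). All 7 lymphatic genes lie above 0 (1.08 to 3.01), capillary markers have a median of -0.94, FAP markers 1.06 and macrophage markers 1.48.

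The levels in endothelial cells were set beside those in FAPs sorted from muscle of the same genotype, again as a description, because the endothelial libraries had served to choose the genes. In DUX4 cells 6 of the 7 genes were higher in every CD31DUX library than in any PDGDUX library and Pdpn was lower, and in WT cells the same 6 were higher and Pdpn lower in CD31WT than in PDGWT. Such non-overlap held for 19.4% (higher) and 17.5% (lower) of all genes in DUX4 cells, and for 21% and 23.6% in WT cells. Flt4 differed by 7.47 ± 0.53 on the log2 scale in DUX4 cells and by 6.61 ± 0.61 in WT cells. Prox1 averaged 121.5 CPM in CD31DUX and 4.27 CPM in PDGDUX, and 41.5 CPM in CD31WT and 4.43 CPM in PDGWT (3.23 ± 0.56). Lyve1 differed by 7.64 ± 0.74 in DUX4 and 5.37 ± 0.79 in WT cells, Ccl21a by 7.26 ± 0.74 in DUX4 and 6.76 ± 0.85 in WT cells, and Reln by 6.31 ± 0.31 in DUX4 and 2.20 ± 0.29 in WT cells.

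Mmrn1 had at most 4 counts in any FAP library, 8 counts over the 4 PDGDUX and 1 over the 3 PDGWT libraries, against 78899 over the CD31DUX and 6612 over the CD31WT libraries. No fold is given on so few FAP counts. Pdpn went the other way, with 35.9 to 46.3 CPM in CD31DUX against 91.4 to 242 CPM in PDGDUX (-1.87 ± 0.25). In WT cells it stood at 16.2 to 23.6 CPM in CD31WT against 75.3 to 112.1 CPM in PDGWT (-2.32 ± 0.29).

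Within FAPs, Mmrn1 had too few counts for its test to be read, and 1 of the other 6 genes differed between DUX4 and WT. Among all genes, 3% were called, 1.77% lower and 1.23% higher. Reln had 2.67, 1.28, 3.32 and 1.88 CPM in PDGDUX, against 10.8, 6.03 and 10.3 CPM in PDGWT, and the groups did not overlap, as for 9.11% of all genes in this direction. It fell by 1.97 on the log2 scale (SE 0.30, adjusted p = 0.00168), a call lost with limma voom (adjusted p = 0.133).

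Ccl21a had 7.93, 10.1, 42.3 and 12.8 CPM in PDGDUX, against 1.36, 2.5 and 9.02 CPM in PDGWT (2.07 ± 0.70, adjusted p = 0.172). The groups overlapped between PDGDUX replicate 1 and PDGWT replicate 3. Pdpn had 91.4 to 242 CPM in PDGDUX and 75.3 to 112.1 CPM in PDGWT (0.65 ± 0.26, adjusted p = 0.242). Flt4, Prox1 and Lyve1 averaged 1.77 to 4.27 CPM in PDGDUX and 0.996 to 4.43 CPM in PDGWT, with adjusted p of 0.595 to 0.989. The 10 shared endothelial markers summed to 166.2 to 232.9 CPM in PDGDUX and 209.3 to 316.9 CPM in PDGWT. Of the 10, 3 were lower without overlap and none higher, beside 9.11% of all genes lower. Eng, the largest of them, averaged 153.4 CPM in PDGDUX and 127.8 in PDGWT, and the other markers all had lower means in PDGDUX. Pecam1, for example, averaged 21.3 CPM in PDGDUX and 44.8 in PDGWT. The part of these markers in the Reln values was not tested.

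Of the 43 lymphatic growth genes, 3 rose and 3 fell in FAPs with DUX4, beside 1.23% and 1.77% of all genes. Rasa1, an inhibitor of Ras signalling, averaged 125.2 CPM in PDGDUX and 75 in PDGWT (0.74 ± 0.15, adjusted p = 0.0132). Foxc1, a transcription factor gene, averaged 62.2 CPM in PDGDUX and 42.1 in PDGWT (0.56 ± 0.13, adjusted p = 0.027), and Piezo1, a mechanically gated channel, 75.1 CPM in PDGDUX and 46.9 in PDGWT (0.68 ± 0.17, adjusted p = 0.0407). The ephrin gene Efnb2 averaged 18.6 CPM in PDGDUX and 48.8 in PDGWT (-1.39 ± 0.19, adjusted p = 0.000728), and Adm, which encodes the vessel peptide adrenomedullin, 150.3 CPM in PDGDUX and 271.3 in PDGWT (-0.85 ± 0.21, adjusted p = 0.0406). Ackr3, a decoy receptor that takes up adrenomedullin, also fell (-0.66 ± 0.17, adjusted p = 0.0461). Of the 16 other lymphatic markers tested, Fgl2 (0.81 ± 0.14) and Cd9 (0.51 ± 0.13) rose and Cp, the ceruloplasmin gene, fell (-1.25 ± 0.16). The count of growth genes called, 6 in all, was 3 without PDGDUX replicate 2 and 2 without PDGDUX replicate 3 or PDGWT replicate 2.

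**Figure D3:**
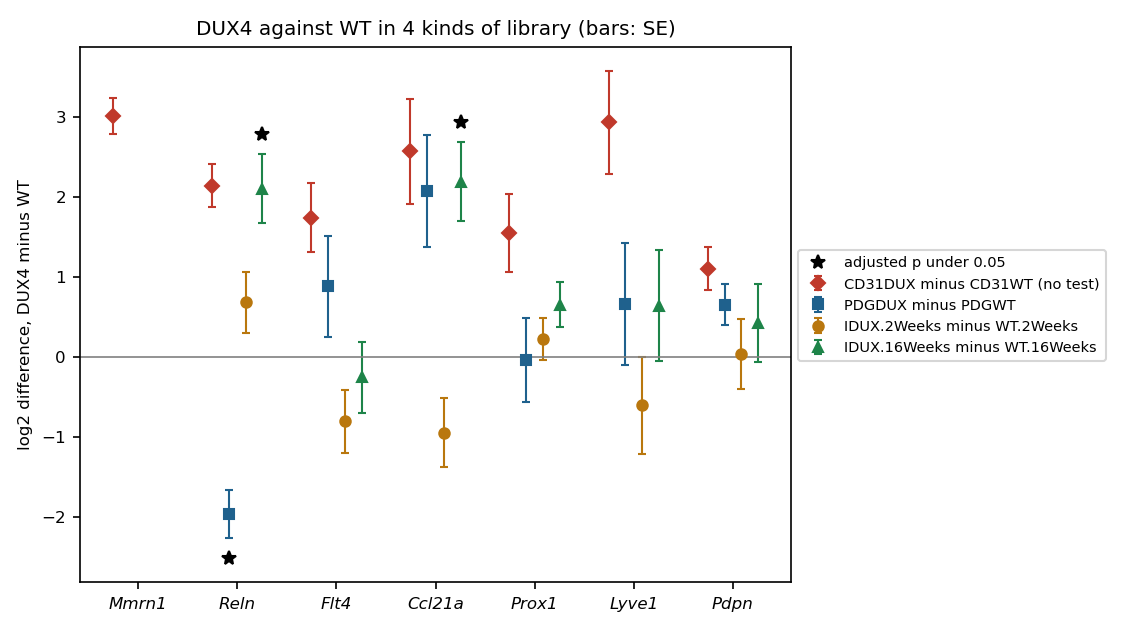
Log2 difference between DUX4 and WT for each gene in 4 kinds of library (points: difference, bars: SE, stars: adjusted p under 0.05 where a test was made). Reln and Ccl21a carry a star at 16 weeks (2.10 and 2.19) and Reln one below 0 in FAPs (-1.97). Mmrn1 is shown for endothelial cells alone, since it had few counts elsewhere.

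In whole muscle at 2 weeks none of the 7 genes passed the test, where edgeR called 17.6% of all 15396 genes, 11.2% higher and 6.47% lower. DESeq2 also called none and limma voom called 1. At an unadjusted p under 0.05 there was 1, Ccl21a, where 31.2% of all genes were. It had 2.22, 0.715, 3.17, 2.78 and 1.59 CPM in IDUX.2Weeks, against 3.68, 5.21, 6.24, 2.98 and 2.17 CPM in WT.2Weeks (-0.95 ± 0.43, adjusted p = 0.143). The groups overlapped, with the highest 3 values all in WT muscle.

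Flt4 had 2.09, 3.75, 4.13, 8.9 and 5.6 CPM in IDUX.2Weeks, against 6.62, 7.37, 8.08, 11.6 and 9.05 CPM in WT.2Weeks (-0.81 ± 0.39, adjusted p = 0.166). It was the gene that voom called (-1.13, adjusted p = 0.0104). IDUX.2Weeks replicate 4 was the one DUX4 library within the WT range, and without it the adjusted p was 0.044. Reln had 5.26 to 8.11 CPM in IDUX.2Weeks and 2.37 to 5.33 CPM in WT.2Weeks (0.68 ± 0.38, adjusted p = 0.235). Prox1 and Pdpn differed by 0.22 ± 0.26 and 0.03 ± 0.44.

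Lyve1, Prox1 and Pdpn were higher in every library of the set with high Hoxd8 than in any of the other set, within each genotype. Flt4 was lower in the same way. In the set with high Hoxd8, Lyve1 had 3.93 to 7.17 CPM in IDUX.2Weeks and 6.21 to 13.8 in WT.2Weeks. In the set with low Hoxd8, it had 0.76 to 3.25 CPM in IDUX.2Weeks and 0.66 to 1.56 in WT.2Weeks. Prox1 had 5.4 to 7.27 CPM in IDUX.2Weeks and 4.55 to 5.88 in WT.2Weeks of the high set. In the low set it had 3.02 to 3.94 and 3.65 to 3.77 CPM, in the same order. Pdpn had 7.63 to 11.1 and 5.96 to 10.6 CPM in the high set, against 3.56 to 4.91 and 4.15 to 4.87 in the low set. The share of all genes split by set was not worked out. Flt4 was lower in every DUX4 library than in any WT library within each set: 2.09 to 4.13 CPM in IDUX.2Weeks against 6.62 to 8.08 in WT.2Weeks of the high set, and 5.6 to 8.9 CPM in IDUX.2Weeks against 9.05 to 11.6 in WT.2Weeks of the low set. In the high set alone its difference was -1.15 (adjusted p = 0.0205). Reln was higher in every DUX4 library than in any WT library within each set. It had 5.46 to 8.11 CPM in IDUX.2Weeks against 3.92 to 5.33 in WT.2Weeks of the high set. In the low set it had 5.26 to 6.43 CPM in IDUX.2Weeks against 2.37 to 3.58 in WT.2Weeks. The low set holds 2 libraries per genotype, and the share of all genes apart within both sets was not worked out. The sum of the shared endothelial markers was 185.7 to 511.5 CPM in IDUX.2Weeks and 377.9 to 622.2 CPM in WT.2Weeks, and its part in the Flt4 values was not tested.

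At 16 weeks Reln and Ccl21a rose in DUX4 muscle, 2 of the 7 genes, where 26.6% of all genes were called, 14.1% higher and 12.5% lower. Reln had 15.6, 7.78, 18.6 and 20.7 CPM in IDUX.16Weeks, against 0.782, 4.66, 3.51 and 6.22 CPM in WT.16Weeks. The difference was 2.10 ± 0.43 (adjusted p = 0.00211). Ccl21a had 8.71, 6.56, 7.31 and 14.2 CPM in IDUX.16Weeks, against 0.521, 2.17, 2.66 and 2.86 CPM in WT.16Weeks (2.19 ± 0.49, adjusted p = 0.00379). All 4 DUX4 libraries were above all 4 WT libraries for both genes, as for 15.2% of all genes. Both calls held in all 16 alternatives. Without WT.16Weeks replicates 1 and 4 together, Reln was at 1.94 (adjusted p = 0.00278) and Ccl21a at 1.92 (adjusted p = 0.019). With the Ccl21 copies summed the difference was 1.92 (adjusted p = 0.00869).

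Prox1 had 13.4, 12.4, 7.88 and 14.1 CPM in IDUX.16Weeks, against 5.21, 9.86, 9.29 and 5.89 CPM in WT.16Weeks (0.65 ± 0.28, adjusted p = 0.0973). IDUX.16Weeks replicate 3 was the DUX4 library within the WT range. In WT.16Weeks Prox1 averaged 7.56 CPM and Mmrn1, on few counts, 0.472. In CD31WT they averaged 41.5 and 121.6 CPM. Which cells of whole muscle gave the Prox1 counts was not tested. Lyve1 had 3.24 to 4.57 CPM in IDUX.16Weeks and 1.48 to 3.84 CPM in WT.16Weeks (0.64 ± 0.70, adjusted p = 0.532). Flt4 had 4 to 6.42 CPM in IDUX.16Weeks and 1.5 to 8.66 CPM in WT.16Weeks (-0.26 ± 0.44, adjusted p = 0.7).

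Pdpn had 10.5, 5.49, 6.99 and 7.23 CPM in IDUX.16Weeks, against 13.6, 2.41, 3.17 and 3.2 CPM in WT.16Weeks (0.42 ± 0.49, adjusted p = 0.562). WT.16Weeks replicate 1 held the highest value of all, and without it Pdpn was called higher (1.38, adjusted p = 0.0172). Without WT.16Weeks replicates 1 and 4 together it was 1.43 (adjusted p = 0.0404), and with limma voom 1.33 (adjusted p = 0.00807). Mmrn1 had 3 counts or fewer in 11 of the 18 whole-muscle libraries. It reached 4.39 CPM in IDUX.16Weeks replicate 4 and 1.64 CPM in WT.16Weeks replicate 3.

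**Figure D4:**
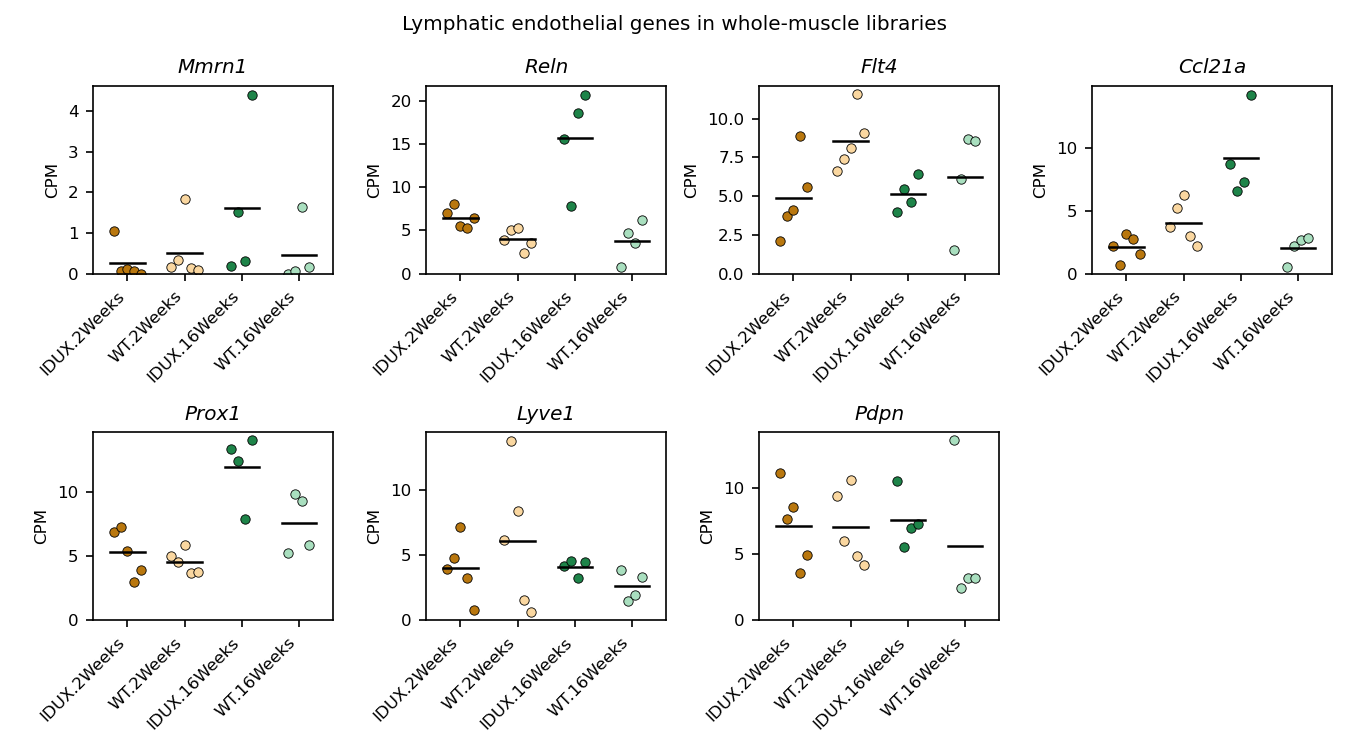
Level of each gene in every whole-muscle library, as CPM on a linear axis (points: libraries, bars: group means; n = 5 per group at 2 weeks and 4 at 16 weeks). Reln and Ccl21a in IDUX.16Weeks (7.78 to 20.7 and 6.56 to 14.2 CPM) lie above all WT.16Weeks points, and 1 WT.16Weeks point of Pdpn stands at 13.6 CPM.

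FAP and muscle fibre markers differed at 16 weeks as well. FAP markers summed to 661.9 to 1279.9 CPM in IDUX.16Weeks against 140.8 to 523.5 CPM in WT.16Weeks. Of these, 5 of 9 were higher without overlap, beside 15.2% of all genes. The sums of macrophage markers overlapped, at 65.3 to 154.7 CPM in IDUX.16Weeks and 28.5 to 82.4 CPM in WT.16Weeks. Of these, 2 of 12 were higher without overlap, near the share of all genes. The shared endothelial markers overlapped, at 279 to 333.2 CPM in IDUX.16Weeks and 196.8 to 395.3 CPM in WT.16Weeks, with none of 10 apart. Mature muscle fibre markers (6 genes) summed to 45217.8 to 71199.5 CPM in IDUX.16Weeks and 96202.5 to 118308.2 CPM in WT.16Weeks. The part of these shifts in the Reln and Ccl21a values was not tested.

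Around the 7 genes, 6 of the 37 lymphatic growth genes tested rose and 2 fell at 2 weeks, and 6 rose and 3 fell at 16 weeks, shares near the 17.6% and 26.6% of all genes called. The median over these genes was -0.29 at 2 weeks and -0.04 at 16 weeks, beside -0.00735 and 0.0136 over all genes. Without IDUX.2Weeks replicate 2 the 8 calls at 2 weeks became 5. Among ligands and their processing, Ccbe1, the cofactor that activates VEGF-C, averaged 2.25 CPM in IDUX.2Weeks and 0.81 in WT.2Weeks (1.48 ± 0.36, adjusted p = 0.00858). At 16 weeks it averaged 3.34 CPM in IDUX.16Weeks and 1.15 in WT.16Weeks (1.56 ± 0.39, adjusted p = 0.00733). That call at 16 weeks was lost without WT.16Weeks replicates 1 and 4 (1.40, adjusted p = 0.0555). The guidance gene Sema3a rose at 2 weeks (1.66 ± 0.36, adjusted p = 0.00475). Outside the rule for named genes, and chosen after their values were seen, Adm fell at 2 weeks (-0.92 ± 0.29, adjusted p = 0.0369) and Vegfd, which encodes VEGF-D, was called lower at 16 weeks (-1.75 ± 0.58, adjusted p = 0.0332). WT.16Weeks replicate 1 held 41.6 CPM of Vegfd and the other WT.16Weeks libraries 4.27 to 5.55, and without replicates 1 and 4 its difference was -0.21 (adjusted p = 0.699).

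Among receptors, Itga9, an integrin chain needed for lymphatic valves, averaged 30.2 CPM in IDUX.2Weeks and 10.7 in WT.2Weeks (adjusted p = 0.000717). At 16 weeks it averaged 50 CPM in IDUX.16Weeks and 12.7 in WT.16Weeks (1.99 ± 0.29, adjusted p = 0.000168). Its partner chain Itgb1 rose at both times (0.67 ± 0.09 and 0.65 ± 0.10), and the semaphorin receptor gene Plxna1 at 16 weeks (1.05 ± 0.17, adjusted p = 0.000305). Dchs1, an atypical cadherin of valve cells, averaged 44.5 CPM in IDUX.2Weeks and 7.3 in WT.2Weeks (2.60 ± 0.38), and 31.8 CPM in IDUX.16Weeks and 4.83 in WT.16Weeks (2.73 ± 0.43). Nfatc1, a transcription factor gene of lymphatic patterning, fell at 16 weeks (-0.59 ± 0.14, adjusted p = 0.00536). Of the 9 growth genes called at 16 weeks, 6 kept their call without WT.16Weeks replicates 1 and 4, and Ccbe1, Vegfd and Angpt1 lost it. None of these genes is restricted to lymphatic cells.

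Of 15 other lymphatic markers tested in whole muscle, 1 rose and 2 fell at 2 weeks, and 3 rose and 1 fell at 16 weeks, again near the 17.6% and 26.6% of all genes. The tetraspanin gene Cd9 averaged 63 CPM in IDUX.2Weeks and 23.4 in WT.2Weeks (1.43 ± 0.26), and 67.2 CPM in IDUX.16Weeks and 19.4 in WT.16Weeks (adjusted p = 0.000378). Stab2, a scavenger receptor gene, fell at both times (-1.21 ± 0.33 and -1.86 ± 0.36). Cp fell at 2 weeks (-0.88 ± 0.27). Sema3d averaged 4.47 CPM in IDUX.16Weeks and 0.688 in WT.16Weeks (2.81 ± 0.82, adjusted p = 0.0187), and Pard6g 2.71 CPM in IDUX.16Weeks and 1.1 in WT.16Weeks (1.33 ± 0.43, adjusted p = 0.029). Without WT.16Weeks replicates 1 and 4, Cd9 and Stab2 kept their calls, and Sema3d (2.52, adjusted p = 0.0543) and Pard6g (1.06, adjusted p = 0.128) lost theirs.

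Whether the DUX4 effect itself differed between 16 and 2 weeks was tested in 1 model. None of the 7 genes passed with edgeR, where 0.299% of all genes did, and 2 had an unadjusted p under 0.05, as did 17.7% of all genes. For Ccl21a the DUX4 effect was greater at 16 weeks by 3.14 ± 0.65 on the log2 scale (adjusted p = 0.0519). It passed in 6 of 26 alternatives, with DESeq2 (adjusted p = 0.000367) and limma voom (adjusted p = 0.0153) among them, and the adjusted p reached 0.116 in the others. For Reln the change was 1.42 ± 0.57 (adjusted p = 0.222). All 7 changes were above 0, and each rests on the same libraries as the effects at the single times. Among the lymphatic growth genes, Plxna1 alone passed (1.12 ± 0.22, adjusted p = 0.0381). That call was lost in 17 of 26 alternatives, which include leaving out any 1 library other than IDUX.16Weeks replicate 2, IDUX.2Weeks replicate 2 or WT.2Weeks replicate 4.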

How the data were processed

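RNA was measured by sequencing in 18 whole-muscle libraries (500 ng of RNA each, mRNA kit) and 14 libraries of sorted cells (low-input cDNA amplification), with different library kits per the labels' protocols. The submitters' processing notes name mm10, CASAVA 1.8 and Salmon 0.6.0. For each library the authors deposited 1 table of expected counts, that is, estimated counts per Ensembl gene not scaled to depth. Not given in the sources used here are the annotation release and how transcripts were summed to genes. Amplified reads without molecular identifiers are not independent molecules.

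Expected counts were rounded to whole numbers. Symbols and exon lengths came from GENCODE vM21 and promoters from RefSeq. Whole-muscle and sorted-cell libraries were fitted apart with edgeR 4.0.16 in R 4.3.3 (filterByExpr with a minimum of 10 counts, TMM factors, robust quasi-likelihood test, 1 mean per group). P-values were adjusted by Benjamini-Hochberg over all genes tested and called under 0.05. CPM uses the TMM library sizes. Differences are DUX4 minus WT, or endothelial cells minus FAPs. The steps were tested on simulated counts. Alternatives were DESeq2 1.42.0, limma 3.58.1 voom with quality weights, RLE size factors, no and a stricter count filter (1 CPM), only the groups compared, the Ccl21 copies summed, the 2-week sets and leaving out libraries.

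The 7 genes and the lists of 43 lymphatic growth genes, 18 other lymphatic markers (1 with no row) and markers of other cells were chosen with earlier results of these data known. Named genes were the 7, their Ccl21 copies, up to 5 called genes of each lymphatic list by smallest p, and the 8 genes most like the 7 by Pearson r in endothelial and in whole-muscle libraries.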

Additional observations from a re-analysis of the deposited data

Results flagged for a closer look

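Within groups of 4 or 5 libraries, 42 combinations of gene and group were examined, and in 6 of them 1 library stood apart from the rest by Dixon's criterion. Chance flags about 1 in 20 groups. In CD31DUX, Lyve1 was at 875.1 CPM in replicate 3, and in PDGDUX, Ccl21a was at 42.3 CPM, also in replicate 3. In WT.16Weeks, Pdpn was at 13.6 CPM in replicate 1, the library whose removal made the Pdpn difference pass the test. Mmrn1 stood apart on few counts in IDUX.2Weeks (1.05 CPM, replicate 1), WT.2Weeks (1.84 CPM, replicate 3) and WT.16Weeks (1.64 CPM, replicate 3).

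Reln was lower in all PDGDUX libraries than in any PDGWT library (log2 difference -1.97) and higher in all CD31DUX libraries than in any CD31WT library (2.14). The difference between these effects was not tested, because the genes were chosen with the endothelial contrast in view.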

How the results depend on the processing

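The count of 0 of the 7 genes called for the change between times became 1, Ccl21a, with DESeq2, limma voom, RLE size factors, the stricter count filter or a term for the 2-week sets, and ran from 0 to 1 when leaving out single libraries. The count of 0 at 2 weeks became 1, Flt4, with limma voom and in the set with high Hoxd8 alone, and ran from 0 to 1 when leaving out libraries. The 1 call in FAPs, Reln, became 0 with limma voom. Differences that changed sign, none of them called with all libraries, were Lyve1 (0.79, against -0.61 with all libraries), Pdpn (-0.11) and Prox1 (-0.11) at 2 weeks in the set with low Hoxd8 alone, Mmrn1 (-2.76 to 0.58, against -0.91) and Pdpn (-0.18 to 0.23) at 2 weeks when leaving out single libraries, and Prox1 in FAPs (0.00 with DESeq2, 0.01 with RLE, and -0.71 to 0.48 without single libraries). The cause was not tested. The calls of Reln and Ccl21a at 16 weeks held in all alternatives.

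Lymphatic growth genes called at 2 weeks, 8, numbered 18 in the high and 0 in the low Hoxd8 set alone and 16 with limma voom. At 16 weeks 9 became 15 with limma voom, and in FAPs 6 became 11 with DESeq2. Over all genes, the 46 calls for the change between times ranged from 8 to 466, the 510 in FAPs from 291 to 1027 and the 2717 at 2 weeks from 16 to 4348. No paired analysis was possible because the labels number no libraries alike across groups: the replicate numbers used here follow accession order. The counts limit Mmrn1 outside the endothelial libraries, where 6 of 7 FAP and 11 of 18 whole-muscle libraries had 3 counts or fewer.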

Other observations

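Of 10538 genes that averaged 5 CPM or more over the 7 endothelial libraries, those that followed the mean of the 7 lymphatic genes most closely were Slc29a1, Ak1, Ecm1, Pmaip1, Prelp, Gpm6a, Myc and Fgl2. Pearson's r, on log2(CPM + 1), was 0.995 for the first and 0.986 for the last. The libraries form 2 separate groups by genotype, so r mostly ranks how cleanly a gene separates them, and no p is given. Slc29a1, a nucleoside transporter gene, averaged 160.5 CPM in CD31DUX and 94.1 CPM in CD31WT. Ecm1, which encodes a matrix protein, averaged 302.5 CPM in CD31DUX and 170 CPM in CD31WT, and Prelp, a proteoglycan gene, 666.4 CPM in CD31DUX and 324.9 CPM in CD31WT. Pmaip1, a cell death gene and p53 target, averaged 43.4 CPM in CD31DUX and 13.5 CPM in CD31WT, and the transcription factor gene Myc 858 CPM in CD31DUX and 536.8 CPM in CD31WT. In all 8 genes the groups did not overlap.

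In the 18 whole-muscle libraries, each set against its group mean, the closest of 9934 genes were Pitpnm1, Tbx3, Pygb, Serping1, Sgce, Pi16, Pcsk6 and Gpc3 (r of 0.901 for the first and 0.884 for the last, as a description). Of the lymphatic genes themselves, Ccl21a followed their mean at 0.804 and Flt4 and Pdpn at 0.156 and 0.102. Their mean was taken over the 6 genes that averaged at least 1 CPM in these libraries, without Mmrn1. Each of those genes is itself part of the mean, which raises its own r.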
